A study of Homo sapiens with 15 samples.

Results

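The TNF receptor superfamily was examined in THP-1 cells through 10 of its genes: TNFRSF1A, TNFRSF1B, TNFRSF4, TNFRSF9, TNFRSF11A, TNFRSF11B, TNFRSF18, CD40, FAS and LTBR. They were taken from the count table by gene symbol, 10 of its 60286 genes, and each passed the filter on low counts that left 17198 genes for testing. THP-1 is an established human line of monocytic leukemia cells. Wild-type cells received either PBS or bacterial extracellular vesicles (BEVs), the small membrane particles that bacteria shed. BEVs from *E. coli* were added at 1 μg/mL of protein (groups EUC and EPL), and BEVs from *S. aureus* at 10 μg/mL (SUC and SPL). UC stands for BEVs isolated by ultracentrifugation and PL for BEVs precipitated with ε-poly-L-lysine. Each of the 5 groups had 3 RNA-seq libraries, the labels do not say whether these came from separate cultures, and p-values therefore measure only the spread between these libraries. Species and dose changed together and cannot be told apart. The methods of the study give 6 hours of incubation, and the labels give the time as Day 0.

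Receptors of this family bind trimeric ligands of the TNF family. TNFRSF1A (TNFR1) and FAS carry a death domain and can recruit TRADD or FADD, whereas TNFRSF1B (TNFR2), TNFRSF4 (OX40), TNFRSF9 (4-1BB), TNFRSF18 (GITR), TNFRSF11A (RANK), CD40 and LTBR (the lymphotoxin beta receptor) bind TRAF adaptors. TNFRSF11B (osteoprotegerin) has no membrane anchor and acts as a secreted decoy for the RANK ligand. In monocytes, CD40 is known as the receptor for CD40 ligand on T cells, and several of these receptors feed the NF-kappa B pathway, some through its non-canonical arm. OX40, 4-1BB and GITR are best known as costimulatory receptors of T cells.

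The sequences before the start sites are shown because 7 of the 10 genes rose together in the stimulated cells. RefSeq promoters (GRCh38.p14, 250 bases before to 50 after a start) were found for 7 of the 10 genes, 9 promoters in all. TNFRSF4, TNFRSF11B and CD40 had no entry. Both strands were searched for the NF-kappa B motif, for AP-1 (TGANTCA), for GAS (TTCNNNGAA), for ISRE (GAAA, any 2 bases, GAAA) and for TATAAA. Among the promoters of genes that rose, only that of TNFRSF9 held the NF-kappa B motif. It matched on the plus strand at -74 and on the minus strand at -73, and these matches overlap. The same promoter held AP-1 at -44 and GAS at -187. The stretches around the matches are printed 5′ to 3′ on the strand of the gene with the motifs in capitals and 9 bases on each side. The NF-kappa B and AP-1 stretches fall in an untranslated exon of a longer transcript of TNFRSF9 in GENCODE 44. All 3 lie on the minus strand of chromosome 1, at chr1:7940894-7940922 (NF-kappa B), chr1:7940868-7940892 (AP-1) and chr1:7941009-7941035 (GAS).
TNFRSF9 NF-kappa B: agctgtggtGGGAATTTCCCatgagaccc
TNFRSF9 AP-1: gcccctggcTGAGTCAccgcactcc
TNFRSF9 GAS: gagagctgcTTCCAAGAAgcaatttga

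The 250 bases before the start are given for TNFRSF18 and TNFRSF1B, which rose, and for LTBR, which did not pass the test. They lie at chr1:1206593-1206842 on the minus strand, at chr1:12166741-12166990 on the plus strand and at chr12:6383912-6384161 on the plus strand. TNFRSF18 held TATAAA at -250, TNFRSF1B held ISRE at -10 on the minus strand, and LTBR held none of the 5 motifs. In GENCODE 44, 48 of the TNFRSF1B bases belong to the microRNA gene MIR7846.
TNFRSF18: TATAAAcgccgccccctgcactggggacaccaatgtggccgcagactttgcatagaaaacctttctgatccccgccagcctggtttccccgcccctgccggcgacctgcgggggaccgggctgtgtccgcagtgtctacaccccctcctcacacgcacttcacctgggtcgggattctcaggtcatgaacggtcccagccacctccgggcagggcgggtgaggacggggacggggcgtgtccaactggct
TNFRSF1B: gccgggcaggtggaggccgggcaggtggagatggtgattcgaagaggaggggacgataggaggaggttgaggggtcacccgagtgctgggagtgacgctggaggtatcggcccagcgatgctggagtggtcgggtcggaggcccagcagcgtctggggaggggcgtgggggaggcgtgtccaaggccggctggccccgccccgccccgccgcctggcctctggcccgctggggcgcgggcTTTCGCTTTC
LTBR: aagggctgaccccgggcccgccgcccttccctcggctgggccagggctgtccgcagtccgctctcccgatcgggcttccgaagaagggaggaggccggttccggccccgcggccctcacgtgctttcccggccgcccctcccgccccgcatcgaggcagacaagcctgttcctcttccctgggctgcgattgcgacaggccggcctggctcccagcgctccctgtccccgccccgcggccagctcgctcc
Of all 35116 promoters in the table, 11.3% held the NF-kappa B motif, 7.71% AP-1, 7.66% GAS, 3.57% ISRE and 11.5% TATAAA. The promoter of TNFRSF11A, which rose, held none of them. Of the promoters of FAS and TNFRSF1A, 4 in all, those of FAS included 1 with the NF-kappa B motif at -157 and 1 with AP-1 at -242. The match is of letters only and was not tied to binding of a factor in these cells.

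The libraries held 14399421 to 16637345 reads counted on genes. Libraries EUC3, EPL1 and SUC3 stood apart from their replicates. A chi-square statistic of the gene counts, divided by its degrees of freedom, was 13.8 to 40.5 in the 6 pairs with them and 2.13 to 6.42 in the 9 pairs of replicates without them. Of 10 monocyte markers, CSF1R, CD4 and SPI1 were abundant, CD14 was at 3.77 CPM in PBS cells, and CD68 was near 0 in each group. CD68 overlaps other annotated genes on both strands, and how reads in shared parts were counted is not given, so its level is uncertain. CPM are counts scaled to the TMM-normalized size of the library. The summed monocyte markers ranged from 1286 to 1308 CPM in PBS cells and from 1759 to 2290 CPM in stimulated cells, where SPI1 took most of the rise. The median log2 fold change of the 9 tested markers was -0.25 with EUC, -0.05 with EPL, 0.03 with SUC and -0.14 with SPL. CD33 went from 82.7 CPM in PBS cells to means of 50.1 to 64.7 CPM, and LYZ from 90.3 CPM to 66.0 to 83.8 CPM. CD14 rose to means of 7.00 to 8.86 CPM. Of 8 T and NK cell markers, CD3D and CD3G had no count, CD3E had 1, in an EPL library, and CD2 had 1, in a PBS library. TRAC had 6 counts over the PBS libraries and 35, 20, 30 and 18 with EUC, EPL, SUC and SPL. The 8 markers summed to 12.8 to 15.5 CPM in PBS cells and 16.95 to 22.9 CPM in stimulated cells, most of it NKG7. The 6 B cell markers summed to 9.45 to 11.1 CPM in PBS cells and 12.2 to 27.0 CPM in stimulated cells, with CR2 at 0. The 6 fibroblast and endothelial markers, mostly PECAM1, summed to 305 to 310.2 CPM in PBS cells and 211 to 290.2 CPM in stimulated cells, and the part of any of these lists in the receptor values was not tested. RNA of all cells was measured together, so fewer cells of a type and less RNA per cell cannot be told apart.

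In PBS cells, TNFRSF1A, TNFRSF1B and LTBR were the receptors with substantial levels. TNFRSF1A had 93.7 ± 1.16 CPM (SD, n = 3), TNFRSF1B had 88.9 ± 2.63 CPM and LTBR had 65.5 ± 1.90 CPM. CD40 followed with 4.46 ± 0.461 CPM, and the other 6 had means of 0.122 to 1.58 CPM. Stimulation changed this order. TNFRSF1B, TNFRSF4, TNFRSF9, TNFRSF11A, TNFRSF11B, TNFRSF18 and CD40 rose in each of the 4 BEV groups, and none of the 10 fell. A gene counted as differentially expressed (DEG) when its adjusted p was 0.01 or lower and it had changed by 1 or more on the log2 scale. Against PBS cells, 7 of 10 genes were higher with EUC, where 9.43% of all tested genes were. The count was 7 with EPL (9.38% of tested genes), 7 with SUC (6.82%) and 7 with SPL (7.76%). The lower DEGs made up 5.75% of tested genes with EUC, 5.15% with EPL, 3.06% with SUC and 3.7% with SPL, and 0 of the 10 were among them. The median log2 fold change of the 10 genes was 2.22 with EUC, 2.08 with EPL, 1.49 with SUC and 1.76 with SPL, while that of all tested genes lay within 0.007 of 0. The 4 comparisons share the PBS libraries. The 10 genes had been chosen with earlier results of these data known, so 7 of 10 does not describe the whole superfamily. Of 10 further tested genes of the superfamily, 2 were higher with EUC, 3 with EPL, 0 with SUC and 1 with SPL.

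**Figure D1:**
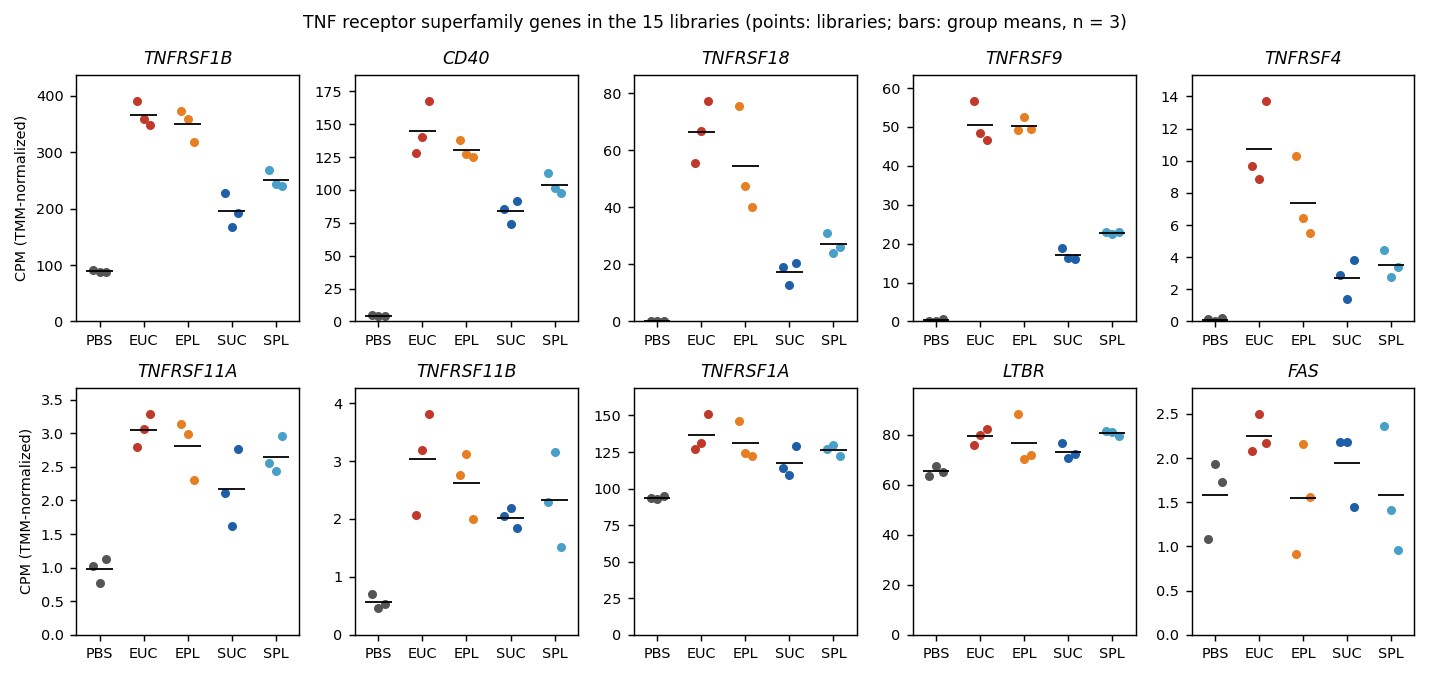
Levels of the 10 receptor genes in CPM (TMM-normalized; linear axes that start at 0) in the 15 libraries, with points for libraries and bars for the means of 3. TNFRSF1B, CD40, TNFRSF18, TNFRSF9 and TNFRSF4 had all *E. coli* libraries above all *S. aureus* libraries and these above PBS cells, whereas the points of FAS mix across the groups. The share of all tested genes with such a separation was not counted.

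The receptors best known from T cells, TNFRSF18, TNFRSF9 and TNFRSF4, rose from a few reads in PBS cells. TNFRSF18 (ENSG00000186891), at chr1:1203508-1206592 on the minus strand of hg38, had 3, 4 and 1 reads in the 3 PBS libraries. It reached 55.6, 66.8 and 77.3 CPM in the EUC libraries and 75.5, 47.7 and 40.2 CPM in the EPL libraries. The SUC libraries had 19.0, 12.7 and 20.6 CPM and the SPL libraries 30.9, 24.1 and 26.2 CPM. The groups did not overlap except EPL with EUC. The share of all tested genes with such gaps between groups was not counted, here or for the receptors below. On the log2 scale the rise was 8.62 ± 0.396 (SE) with EUC, 8.33 ± 0.400 with EPL, 6.68 ± 0.436 with SUC and 7.32 ± 0.418 with SPL, with adjusted p of 2.07e-09 or lower. Since it rests on 8 reads over the PBS libraries, the size of this ratio is loosely set.

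TNFRSF9 (ENSG00000049249, chr1:7915871-7943165, minus strand) encodes the receptor for 4-1BB ligand. It had 3, 3 and 11 reads in the PBS libraries. In EUC it had 56.7, 48.5 and 46.6 CPM, with EPL 49.1, 52.5 and 49.4 CPM, with SUC 18.8, 16.2 and 16.2 CPM, and with SPL 23.0, 22.4 and 23.1 CPM. The SPL libraries had an SD of 0.367 CPM around a mean of 22.8 CPM and lay above every SUC library. The log2 fold change against PBS cells was 7.17 ± 0.215 with EUC and 7.16 ± 0.215 with EPL, and 5.60 ± 0.229 with SUC and 6.02 ± 0.224 with SPL, with adjusted p of 4.29e-12 or lower. Without NC3, the library with 11 reads, the values were 8.04, 8.04, 6.48 and 6.89. On the opposite strand the annotation has ENSG00000270330, and since the strand setting of the counting is not given, its reads cannot be told from those of TNFRSF9.

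TNFRSF4 (ENSG00000186827, chr1:1211326-1214153, minus strand), the OX40 gene, had 2, 0 and 4 reads in the PBS libraries. It had 9.67, 8.89 and 13.7 CPM with EUC, 10.3, 6.43 and 5.48 CPM with EPL, 2.87, 1.37 and 3.82 CPM with SUC, and 4.46, 2.77 and 3.37 CPM with SPL. SUC and SPL overlapped, as did EUC and EPL. Fitted log2 fold changes were 6.38 ± 0.532 with EUC, 5.84 ± 0.550 with EPL, 4.37 ± 0.630 with SUC and 4.78 ± 0.604 with SPL, with adjusted p of 3.49e-05 or lower. Without NC3, which had 4 of the 6 reads in PBS cells, they were 7.28, 6.74, 5.27 and 5.67, and without NC2 they were 5.80, 5.26, 3.81 and 4.21. Leaving out EUC3, EPL1 and SUC3, the means were 9.28, 5.96 and 2.12 CPM with EUC, EPL and SUC, against 10.8, 7.40 and 2.69 CPM with them.

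TNFRSF18 and TNFRSF4 are neighbours on the same strand with 4733 bases between them. The ratio of TNFRSF18 to TNFRSF4 within a library, on CPM per kilobase of merged exons, was 11.4 ± 0.070 with EPL (n = 3), where each gene alone varied by more than 1.5-fold. It was 9.78 ± 1.64 with EUC, 11 ± 3.05 with SUC and 12.1 ± 1.38 with SPL, and these ranges overlap. The EPL libraries held 157, 101 and 88 reads of TNFRSF4, so the SD of 0.070 is smaller than their counting error. With the length of the canonical transcript the mean ratios of the BEV groups were 6.25 to 7.74. In PBS cells the ratio was 2.33 in NC1 and 0.389 in NC3, and these rest on 1 to 4 reads of each gene. None could be formed in NC2, where TNFRSF4 had no read. For TNFRSF1A, the highest library of a BEV group was the one with the lowest TMM factor in 4 of the 4 groups. This held in 3 groups for TNFRSF18, TNFRSF4, TNFRSF11A and CD40, 2 for LTBR and TNFRSF11B, 1 for TNFRSF1B and 0 for TNFRSF9 and FAS. The lowest factors of EUC, EPL and SUC belonged to EUC3, EPL1 and SUC3, the libraries that stood apart from their replicates. The share over all tested genes was not counted, and the part of the normalization in the spread was not tested.

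CD40 (ENSG00000101017, chr20:46118271-46129863, plus strand) combined a large rise with a high final level. PBS libraries had 4.98, 4.11 and 4.29 CPM. The EUC libraries had 128, 140.0 and 168 CPM and the EPL libraries 138, 127 and 125 CPM. The SUC libraries had 85.6, 74.4 and 91.4 CPM and the SPL libraries 113, 101 and 98.0 CPM. The lowest BEV library was thus far above every PBS library, and SPL lay above SUC without overlap. Against PBS cells the log2 fold change was 5.02 ± 0.135 with EUC, 4.87 ± 0.134 with EPL, 4.23 ± 0.133 with SUC and 4.54 ± 0.134 with SPL, with adjusted p of 1.64e-13 or lower.

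TNFRSF1B (ENSG00000028137, chr1:12166991-12209228, plus strand), the TNF receptor that lacks a death domain, was already expressed in PBS cells. It had 91.9, 86.9 and 87.9 CPM there, and 391, 359 and 348 CPM with EUC, 372, 358 and 318 CPM with EPL, 228, 168 and 192 CPM with SUC, and 268, 244 and 239 CPM with SPL. This was a log2 fold change of 2.04 ± 0.104 with EUC, 1.98 ± 0.104 with EPL, 1.14 ± 0.102 with SUC and 1.49 ± 0.103 with SPL, with adjusted p of 1.39e-07 or lower. After stimulation TNFRSF1B was the most abundant of the 10 on CPM per kilobase of merged exons in each BEV group. With the canonical length this held except with SUC, where TNFRSF1B had 53.1 and TNFRSF1A 54.1 CPM per kilobase.

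TNFRSF1A (ENSG00000067182, chr12:6328757-6342114, minus strand), the death domain receptor for TNF, moved far less. PBS libraries had 93.3, 92.8 and 95.1 CPM, EUC libraries 127, 131 and 151 CPM, EPL libraries 146, 124 and 122 CPM, SUC libraries 114, 110 and 129 CPM, and SPL libraries 127, 130 and 122 CPM. Every BEV library was above every PBS library. In log2 terms the change was 0.54 ± 0.091 with EUC, 0.48 ± 0.091 with EPL and 0.43 ± 0.091 with SPL, with adjusted p of 0.000125, 0.000394 and 0.0013, and 0.33 ± 0.091 with SUC with an adjusted p of 0.0112. None reached the fold threshold.

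**Figure D2:**
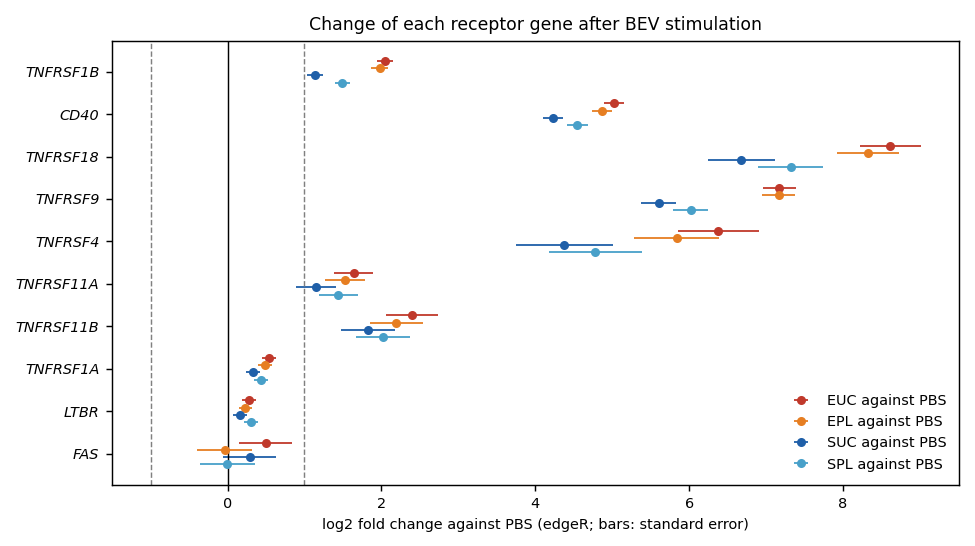
Log2 fold change of each receptor gene against PBS cells (horizontal axis; edgeR fit, bars are standard errors) for the 4 BEV groups, with dashed lines at -1 and 1. The points of TNFRSF18, TNFRSF9, TNFRSF4 and CD40 lie beyond 4 in each group, whereas TNFRSF1A, LTBR and FAS lie within the dashed lines.

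The balance of the TNF receptors shifted. The ratio of TNFRSF1B to TNFRSF1A, on CPM per kilobase of merged exons, was 1.10, 1.04 and 1.03 in the PBS libraries. It was 3.42, 3.05 and 2.57 with EUC, 2.83, 3.21 and 2.89 with EPL, 2.23, 1.71 and 1.65 with SUC, and 2.34, 2.096 and 2.18 with SPL. Each BEV library was above each PBS library and each *E. coli* library above each *S. aureus* library. The ratio depends on the gene length used. With the canonical transcript the group means were 0.558 in PBS cells, 1.59 with EUC, 1.57 with EPL, 0.985 with SUC and 1.17 with SPL, so whether TNFRSF1B exceeds TNFRSF1A in PBS and SUC cells turns on that choice, while the order of the groups does not.

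**Figure D3:**
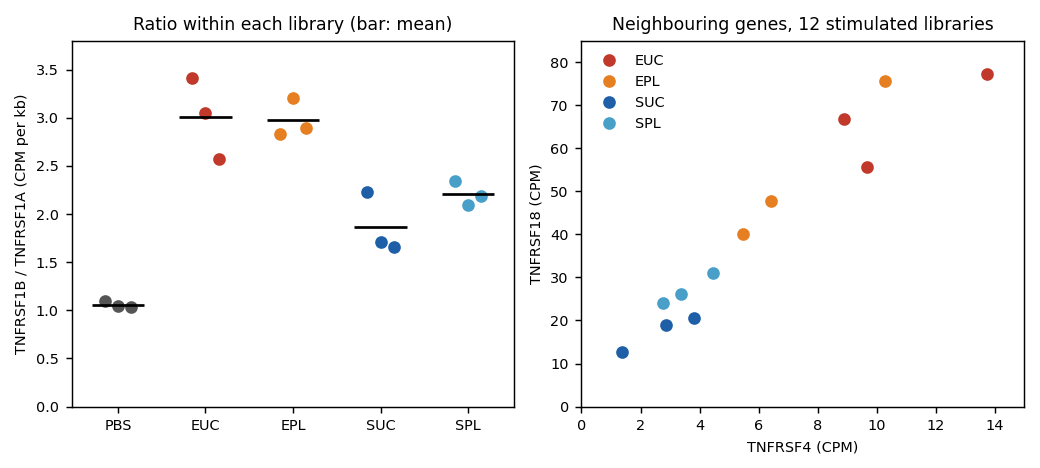
Left, the ratio of TNFRSF1B to TNFRSF1A in CPM per kilobase of merged exons in each library, with bars for means of 3. Right, TNFRSF18 against TNFRSF4 in CPM in the 12 stimulated libraries; the PBS libraries lie near 1 on the left, and on the right the *E. coli* libraries have higher values of both genes than the *S. aureus* libraries.

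TNFRSF11A and TNFRSF11B, the receptor and the decoy for RANK ligand, rose from low levels and stayed low. TNFRSF11A (ENSG00000141655, chr18:62325287-62391288, plus strand) had 0.763 to 1.13 CPM in PBS cells, 2.79 to 3.28 CPM with EUC, 2.31 to 3.15 CPM with EPL, 1.62 to 2.77 CPM with SUC and 2.44 to 2.96 CPM with SPL. These levels rest on 13 to 50 reads per library. The log2 fold change was 1.64 ± 0.253 with EUC, 1.53 ± 0.254 with EPL, 1.15 ± 0.261 with SUC and 1.44 ± 0.256 with SPL, with adjusted p of 0.00255 or lower. The SUC value depended on single libraries: it was 0.93 without SUC3 and 1.01 without NC2, and neither then passed the test. With glmTreat, TNFRSF11A was not called in any BEV group.

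TNFRSF11B (ENSG00000164761, chr8:118923557-118951885, minus strand) had 8 to 11 reads per PBS library, or 0.470 to 0.703 CPM. It had 2.08 to 3.81 CPM with EUC, 1.99 to 3.12 CPM with EPL, 1.85 to 2.18 CPM with SUC and 1.51 to 3.15 CPM with SPL. The BEV groups overlapped one another and lay above PBS cells. Its log2 fold change was 2.40 ± 0.339 with EUC, 2.19 ± 0.343 with EPL, 1.82 ± 0.353 with SUC and 2.02 ± 0.348 with SPL, with adjusted p of 0.000665 or lower. The ratio of TNFRSF11A to TNFRSF11B on CPM per kilobase of merged exons was 0.484 ± 0.095 in PBS cells and had means of 0.295 to 0.358 in the BEV groups, where the ranges of SUC and SPL reached into that of PBS cells.

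LTBR and FAS did not meet the criteria for a DEG. LTBR (ENSG00000111321, chr12:6375045-6391571, plus strand) had 63.6 to 67.4 CPM in PBS cells and 70.6 to 88.3 CPM in the 12 BEV libraries. Every BEV library exceeded the PBS libraries, yet the log2 fold changes were only 0.16 to 0.30, with adjusted p between 0.0106 and 0.172. FAS (ENSG00000026103, chr10:88953813-89029605, plus strand) had 1.09 to 1.94 CPM in PBS cells and 0.917 to 2.50 CPM in BEV libraries. Its log2 fold change was 0.50 ± 0.342 with EUC, -0.04 ± 0.355 with EPL, 0.29 ± 0.348 with SUC and 0.00 ± 0.356 with SPL, with adjusted p of 0.268 or higher, and its 95% intervals reached from -0.79 to 1.22. At 14 to 39 reads per library, the intervals with EUC and SUC still held a 2-fold rise of FAS. FAS overlaps STAMBPL1 on its own strand and ACTA2 on the other, and LTBR overlaps SCNN1A on the other strand, so reads in the shared parts are uncertain.

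The species comparison asked how the cells differed between the *E. coli* BEVs at 1 μg/mL and the *S. aureus* BEVs at 10 μg/mL. TNFRSF4, TNFRSF18 and TNFRSF9 were DEGs with higher levels in the *E. coli* groups, 3 of the 10 genes, against 0.663% of all tested genes. Their fitted differences passed 2-fold, but glmTreat, which tests against a change of 2-fold, called 0 of the 10. All 10 had been chosen with earlier results of these data known, which limits the comparison with the share of all tested genes. The 6 *E. coli* libraries averaged 9.08 CPM of TNFRSF4 (5.48 to 13.7) and the 6 *S. aureus* libraries 3.11 CPM (1.37 to 4.46), a log2 difference of 1.53 ± 0.233 with an adjusted p of 0.000378. For TNFRSF18 the means were 60.5 CPM (40.2 to 77.3) and 22.2 CPM (12.7 to 30.9), a log2 difference of 1.47 ± 0.151 with an adjusted p of 9.93e-06. For TNFRSF9 they were 50.5 CPM (46.6 to 56.7) and 19.9 CPM (16.2 to 23.1), a log2 difference of 1.36 ± 0.091 with an adjusted p of 3.88e-07. None of these 3 ranges overlapped between the species, but how many of all tested genes separate in this way was not counted.

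TNFRSF1B and CD40 were also higher in the *E. coli* groups, by less than 2-fold. TNFRSF1B averaged 358 CPM (318 to 391) against 223 CPM (168 to 268), a log2 difference of 0.69 ± 0.071 with an adjusted p of 1.01e-05. CD40 averaged 138 CPM (125 to 168) against 93.9 CPM (74.4 to 113), a log2 difference of 0.56 ± 0.075 with an adjusted p of 0.000121. With no fold threshold, 5 of the 10 genes thus passed an adjusted p of 0.01, against 3.87% of all tested genes. For the other 5, the 95% interval of the log2 difference was -0.003 to 0.27 for TNFRSF1A, -0.05 to 0.63 for TNFRSF11A, -0.06 to 0.80 for TNFRSF11B, -0.11 to 0.15 for LTBR and -0.43 to 0.61 for FAS. In 8 of the 10 genes the means followed the order PBS, SUC, SPL, EPL, EUC from low to high, with many neighbours that overlap, and the exceptions were FAS and LTBR. The share of all tested genes with this order was not counted, and the 10 genes were read in the same libraries.

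**Figure D4:**
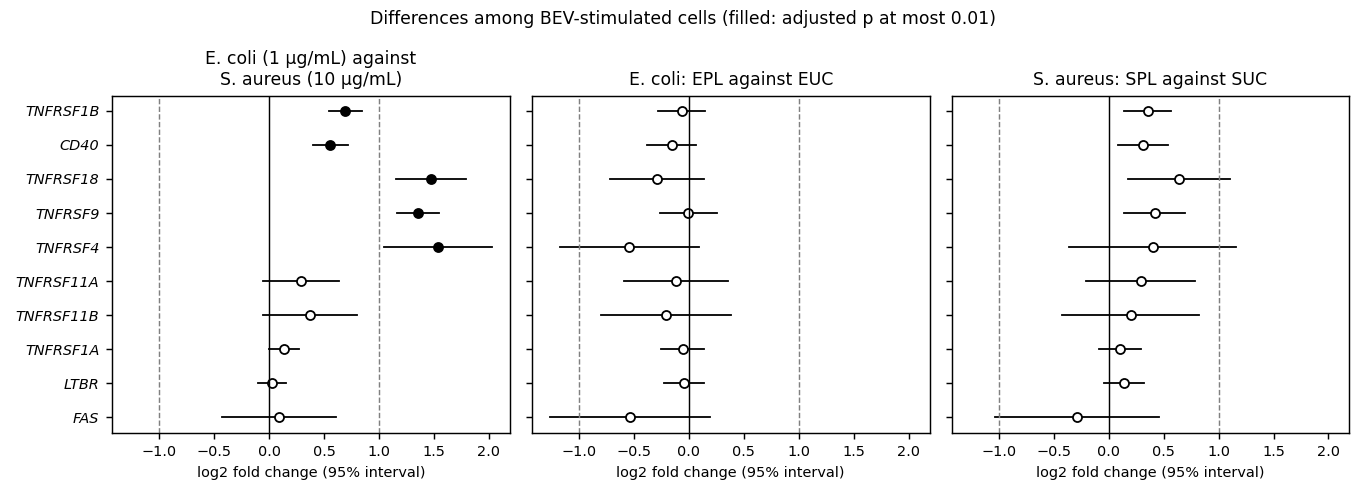
Log2 fold changes with 95% intervals (horizontal axes) of the 10 genes for the *E. coli* groups against the *S. aureus* groups, for EPL against EUC and for SPL against SUC, with filled points where the adjusted p was at most 0.01. The species panel has 5 filled points, from 0.56 for CD40 to 1.53 for TNFRSF4, and the panels of isolation methods have none.

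The isolation methods were compared within each species. For *E. coli* BEVs, none of the 10 genes differed between EPL and EUC (edgeR; 0 of 10 also at an unadjusted p of 0.05), and 0% of all tested genes did at an adjusted p of 0.01, with 604 at an unadjusted p of 0.05. DESeq2 called 0 of the 10 as well. The intervals were narrow for TNFRSF9, at -0.27 to 0.25 on the log2 scale, for TNFRSF1B, at -0.28 to 0.14, and for CD40, at -0.38 to 0.06. They were wide for TNFRSF4, at -1.17 to 0.09, and FAS, at -1.26 to 0.20, and so could hide a difference of 2-fold.

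For *S. aureus* BEVs, none of the 10 passed an adjusted p of 0.01 when SPL was set against SUC, as 0.00581% of all tested genes did, and DESeq2 called 0 of the 10. At an unadjusted p of 0.05, 4 of the 10 and 1000 of all tested genes passed. These 4 were TNFRSF1B, TNFRSF9, TNFRSF18 and CD40, all with higher values with SPL, by 0.36 ± 0.100, 0.42 ± 0.132, 0.64 ± 0.219 and 0.31 ± 0.106 on the log2 scale, and their adjusted p were 0.727 or higher. Their SPL libraries lay above their SUC libraries without overlap, but the share of all tested genes that separate in this way was not counted. The test of whether the effect of the isolation method differed between the species gave 0 calls among the 10 and 0% among all tested genes. At an unadjusted p of 0.05, 4 of the 10 and 659 of all tested genes passed, and DESeq2 called 0 of the 10. Without EUC3, EPL1 and SUC3, TNFRSF18 passed that test, with a difference of -1.25 ± 0.190 in log2 units (EPL against EUC minus SPL against SUC) and an adjusted p of 0.00262, as did 0.0227% of the tested genes, 4 of 17584. With all libraries the difference was -0.93 with an adjusted p of 1.

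The ligands of these receptors were followed as a list of 10 genes, 8 of which passed the filter. TNF, LTA, LTB and TNFSF18 (GITR ligand) were higher in all 4 BEV groups. This list too was chosen with earlier results known, and the share of all tested genes called in all 4 groups was not counted. TNF, the ligand of TNFRSF1A and TNFRSF1B, went from 18.2 CPM in PBS cells to 274 CPM with EUC, 193 CPM with EPL, 351 CPM with SUC and 312 CPM with SPL. Its log2 fold change was 3.91, 3.40, 4.27 and 4.10, in the same order. The order of the species was opposite to that of the receptors above, since TNF was lower in the *E. coli* groups by 0.53 on the log2 scale with an adjusted p of 0.000563 (log2 fold change -0.53). LTA and LTB, which form the ligand of LTBR, rose by log2 fold changes of 3.02 to 3.33 and 1.83 to 2.60. TNFSF18 had 0 reads in the PBS libraries and 47, 54, 23 and 40 reads with EUC, EPL, SUC and SPL. Taking 3 reads over the 3 PBS libraries as the floor, it was at least 16.8-fold higher with EUC, 18.9-fold with EPL, 8.27-fold with SUC and 14.4-fold with SPL.

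TNFSF9 (4-1BB ligand) was below the fold threshold in each group. It had 22.7 to 25.7 CPM in PBS cells and 34.3 to 54.2 CPM in the BEV libraries, with log2 fold changes of 0.64 to 0.96 and adjusted p of 0.000458 or lower. The group means of TNFSF4 (OX40 ligand) were 0.389 to 0.697 CPM. TNFSF14, a ligand of LTBR, was lower with EUC (log2 fold change -1.40) and EPL (-1.001), and its log2 fold change was -0.73 with SUC and -0.66 with SPL. TNFSF11 (RANK ligand) had 2.34 CPM in PBS cells, 1.29 with EUC, 0.913 with EPL, 1.26 with SUC and 0.721 with SPL. It was a DEG with EPL (log2 fold change -1.35) and SPL (-1.68), while its values of -0.85 with EUC and -0.88 with SUC had adjusted p of 0.0481 and 0.0516. FASLG had 1 read and CD40LG had 2 reads over all libraries. The median log2 fold change of the 8 tested ligands was 1.297 to 1.64.

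Of 19 further receptors of the superfamily, 10 passed the filter, and TNFRSF6B, TNFRSF13B and EDA2R had no read. TNFRSF6B overlaps RTEL1-TNFRSF6B on its own strand, and TNFRSF13B also overlaps other genes on its strand. How reads in shared parts were counted is not given, so lack of reads does not show lack of these 2 transcripts. None of the 10 tested genes met the fold threshold in all 4 groups, and none was a lower DEG in any. The TRAIL death receptor gene TNFRSF10B had 33.9 to 38.2 CPM in PBS cells and 64.8 to 79.9 CPM in the BEV libraries. Its log2 fold change was 1.09 with EUC, 1.13 with EPL, 1.08 with SPL and 0.91 with SUC, each with an adjusted p of 8.78e-08 or lower. TNFRSF21 had 1.32 with EUC, 1.36 with EPL, 0.69 with SUC and 0.89 with SPL, each with an adjusted p of 6.35e-06 or lower. The decoy receptor TNFRSF10D was a DEG with EPL (1.03), with values of 0.55 to 0.91 in the other groups and adjusted p of 0.00234 or lower. RELT, the third of the more abundant genes of this list, had log2 fold changes of 0.21 to 0.44. The median over the 10 was 0.23 to 0.44, beside 1.49 to 2.22 over the 10 genes described above, which had been chosen with earlier results known.

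All 20 of the listed adaptors, kinases and ligases that act beneath these receptors were tested. BIRC3, CFLAR, CYLD, TNFAIP3, TRAF1 and TRAF3 were DEGs with higher levels in all 4 BEV groups, and none fell by 2-fold. The list was chosen with earlier results of these data known, and the share of all tested genes called in all 4 groups was not counted. TAB2 had log2 fold changes of 1.14 with EUC, 1.16 with EPL, 0.89 with SUC and 0.97 with SPL, each with an adjusted p of 2.16e-07 or lower, and missed the fold threshold in the last 2. BIRC3 (cIAP2), a ubiquitin ligase held by TRAF2, went from 0.179 CPM to 43.0 CPM with EUC, 43.2 CPM with EPL, 28.6 CPM with SUC and 32.2 CPM with SPL. TNFAIP3 (A20), which limits NF-kappa B signaling, went from 14.8 CPM to between 499 and 579 CPM. TRAF1, an adaptor of 4-1BB and TNFR2, went from 4.16 CPM to 109 CPM with EUC, 100.2 CPM with EPL, 35.6 CPM with SUC and 49.2 CPM with SPL. It was the only gene of this list that was a DEG between the species, higher in the *E. coli* groups (log2 difference 1.32, adjusted p of 9.93e-07). CFLAR, the inhibitor of caspase-8 at the death receptors, rose by log2 fold changes of 1.29 to 1.59, CYLD by 1.89 to 2.17 and TRAF3 by 1.06 to 1.14. TRADD, FADD, RIPK1, CASP8 and TRAF2 did not reach 2-fold in any group. RBCK1, a subunit of the linear ubiquitin ligase and among the abundant genes of the list, had log2 fold changes of 0.36 to 0.55.

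**Figure D5:**
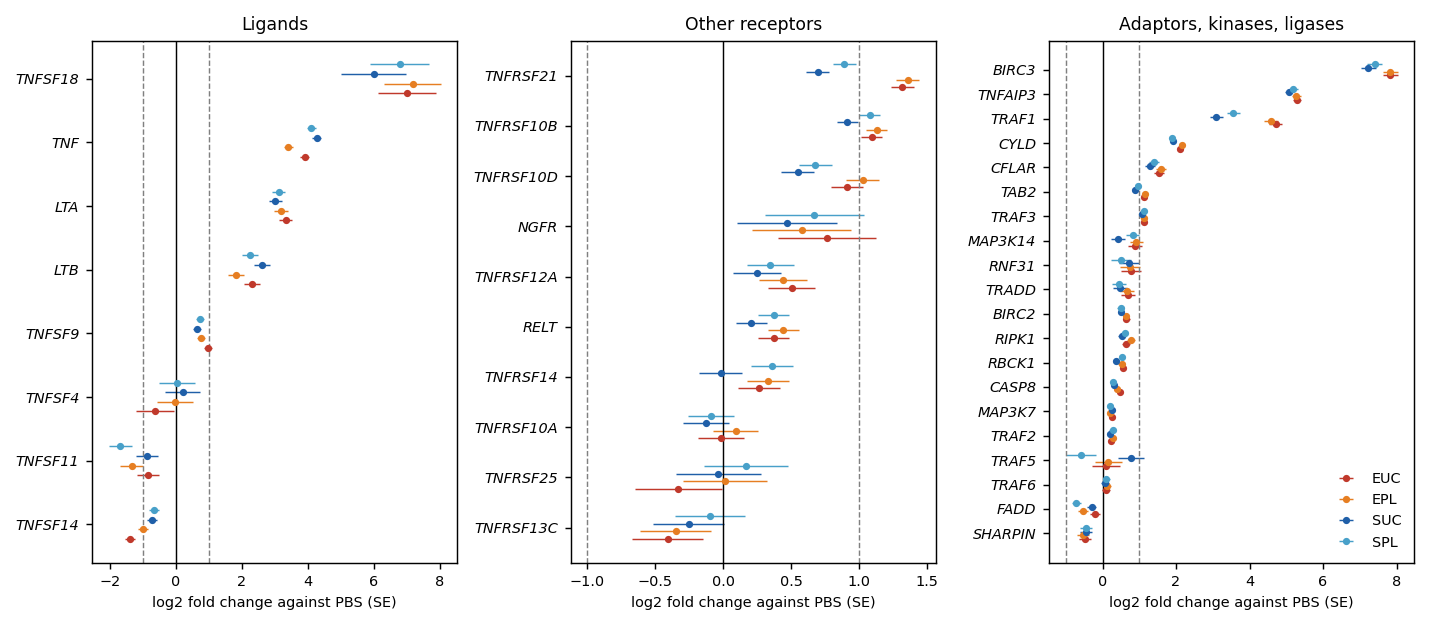
Log2 fold changes against PBS cells (horizontal axes; bars are standard errors) of the tested ligands, further receptors and adaptor genes in the 4 BEV groups, with dashed lines at -1 and 1. TNFSF18, which had no read in PBS cells, lies farthest to the right among the ligands. BIRC3, TNFAIP3 and TRAF1 do so among the adaptor genes, and no further receptor exceeds 1.36.

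Of 5 genes for shedding and surface transport of receptors, 0 met the criteria. ADAM17, the protease that cleaves TNFRSF1A and TNFRSF1B from the surface, had log2 fold changes of 0.77 to 0.87, and RHBDF2, which carries ADAM17 through the cell, of 0.55 to 0.98. The most abundant genes of the list were TIMP3, ADAM10 and ERAP1. TIMP3, an inhibitor of ADAM17, had 202 CPM in PBS cells, 185 CPM with EUC, 152 CPM with EPL, 264 CPM with SUC and 207 CPM with SPL. The mRNA counts do not measure receptor protein at the surface or in the medium.

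Genes with the profile most like that of each receptor were sought by the Pearson correlation over the 15 libraries among 13456 genes outside the list of 10. These values describe points that share groups and libraries, and the step from PBS to BEVs carries much of them. TNFRSF1B was most like ECE1 (r = 0.996) and FMNL1 (0.993), TNFRSF9 like PARM1 (0.995) and TDRD6 (0.995), and TNFRSF18 like HMGN2P46 (0.998) and SAMSN1 (0.998). CD40 was most like HPYR1 (0.999) and IFIT3 (0.999), and TNFRSF4 like IL15RA (0.989). TNFRSF1A was closest to TIMP1 (0.989) and SLC3A2 (0.985), TNFRSF11A to LFNG (0.971) and LINC01160 (0.969), and TNFRSF11B to ULBP2 (0.968) and TRIM21 (0.960). LTBR reached 0.938 with FLCN and 0.932 with CLK2, and FAS only 0.805 with PIWIL2-DT and 0.709 with MT-ATP8. ECE1 went from 37.8 CPM in PBS cells to 287 CPM in the *E. coli* groups and 137 CPM in the *S. aureus* groups, a pattern of the same order as TNFRSF1B.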

How the data were processed

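The 15 RNA-seq libraries of THP-1 cells were put in 5 groups of 3 by their labels, in which NC is the PBS group. The authors aligned reads to hg38 and deposited whole-number counts per gene, without normalization. Their processing notes name FastQC 0.11.5, HISAT2 2.1.0, StringTie 1.3.3b, DESeq 1.28.0 and featureCounts. Neither strand setting nor annotation is stated in the sources used here, and the table had 0 unused columns of values and 0 rows without a gene name.

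The deposited counts were analysed with edgeR 4.0.16 in R 4.3.3. After filterByExpr, 17198 genes were normalized by TMM, and glmQLFit and glmQLFTest were fitted to all 15 libraries without a block. P-values were adjusted over all tested genes by Benjamini-Hochberg. Standard errors are the log2 fold change divided by the root of the F statistic. Library depth was 14399421 to 16637345 counts (median 15831655), the TMM factors were 0.915 to 1.09 and the common biological coefficient of variation was 0.118. The steps were tested on simulated counts. Alternatives were DESeq2 1.42.0, other scalings and filters, fits of the groups compared only, a replicate block, glmTreat and leaving out libraries. Leaving out EUC3, EPL1 and SUC3 together and the canonical length were added after the data had been seen. Gene positions and lengths are from GENCODE 44. Counting error is only part of the error of a library.

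The 10 genes and the other lists were chosen with earlier results of these data known. The genes named are the 10, the 2 most alike genes of each of them (1 of these is not reported here), and from the lists those called in all 4 groups or between species or methods and the 3 with the highest mean CPM. TNFSF4, TNFSF9, TNFSF11, TNFSF14, FASLG, CD40LG, TNFRSF10D, TAB2, TRADD, FADD, RIPK1, CASP8, TRAF2, RHBDF2, ADAM17, the genes without reads and the marker genes were picked once their values had been seen.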

Additional observations from a re-analysis of the deposited data

How the results depend on the processing

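Of the log2 fold changes of the 10 genes under other settings, glmTreat and the fit without a fold threshold aside, 388 kept direction and call, 10 changed sign and 2 lost the call. Without 1 library, 347 kept both, 11 changed sign and 2 lost the call. Leaving out each library in turn gave 7 called genes in EUC, EPL and SPL, 6 to 7 in SUC, 3 between species and 0 elsewhere. With glmTreat, which tests against a 2-fold change, 6 genes were called in EUC, 6 in EPL, 4 in SUC (CD40, TNFRSF4, TNFRSF9 and TNFRSF18), 5 in SPL (these and TNFRSF1B) and 0 between the species. TNFRSF11A lost its call in all 4 groups, TNFRSF11B in SUC and SPL and TNFRSF1B in SUC, and without a fold threshold 5 were called between the species. Without EUC3, EPL1 and SUC3 the counts were 7, 7, 6 and 7 against PBS, 3 between species and 1 (TNFRSF18) for the difference of methods between species. TNFRSF11A in SUC lost its call there (0.94, adjusted p of 0.0203), without SUC3 (0.93), without NC2 (1.01) and when only SUC and PBS cells were fitted (1.16, adjusted p of 0.015). The sign of FAS in SPL against PBS was not fixed: it was positive with RLE (0.005), no filter (0.004), CPM of at least 1 in 3 libraries (0.012), the replicate block (0.001), only the groups compared (0.009), DESeq2 (0.005) and without the 3 libraries (0.002), and spanned -0.40 to 0.26 when 1 library was left out. In EPL against PBS it was 0.23 without the 3 libraries and -0.36 to 0.22 without 1 library, and between species -0.077 to 0.282. LTBR between species was -0.006 with library totals, -0.056 without the 3 libraries and -0.033 to 0.043 without 1 library. The cause of these changes was not tested. Scaling by library totals moved the median of all genes by -0.11 to -0.16 against PBS and by -0.03 between species. With the replicate number as a replicate block, 7 genes were called in each BEV group, 0 between methods and 3 between species, as without it. The deviations of same-numbered libraries had a mean correlation of 0.009 (range -0.45 to 0.52 over 30 pairs). Those of different-numbered libraries had one of -0.004 (-0.48 to 0.49 over 60 pairs). This gave no sign of pairing by number, but it cannot exclude pairing, since EUC3, EPL1 and SUC3 stood apart from their replicates. The low counts of TNFRSF4, TNFRSF9 and TNFRSF18 in PBS cells and of FAS throughout limit the precision of their ratios.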

Other observations

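Outside the receptor pathway, SPI1, a transcription factor of myeloid cells, was higher and MPO, a granule enzyme of early myeloid cells, was lower in all 4 BEV groups. SPI1 had 470 CPM in PBS cells and means of 959 to 1196 CPM in the BEV groups, while MPO had 10.2 CPM and 3.37 to 4.202 CPM. PAX5, on the B cell list, rose from 5.43 CPM to between 13.1 and 18.3 CPM, while MS4A1 and CR2 of the same list were near or at 0. COL1A1, on the fibroblast list, rose from 0.745 CPM to between 1.86 and 4.52 CPM, with COL1A2 near 0. The parts of these marker changes in the receptor values were not tested.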
